A study of Arabidopsis thaliana with 48 samples.

Results

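The comparison described here set shoot apices of *flc svp* plants, which lack functional alleles of both floral repressors, against apices of the wild type (WT) after a short exposure to long days (LDs). Its members were chosen by the titles of the samples and comprised 6 of the 48 arrays of the series, 3 of *flc svp* and 3 of WT, with 31004 genes measured on each. The mutants carried *svp-41* and *flc-3* and were compared, in the Columbia cultivar, with plants that had functional *SVP* and *FLC*. Per the study's methods all of these lines, WT included, carried an active *FRIGIDA* (*FRI*) allele introgressed from another accession, so that *FLC* is transcribed in WT. The plants of these 6 samples grew for 2 weeks under short days (SDs), spent 2 further days under LDs and were harvested 8 h after dawn, and the 3 arrays of a group were biological replicates. The *svp* and *flc* single mutants of the same tissue and day length, the *flc svp* and WT apices in SDs and the *flc svp* and WT leaves in LDs, each with 3 arrays, served for comparison.

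*FLC* (Flowering Locus C) and *SVP* (Short Vegetative Phase) encode MADS-box transcription factors that bind DNA as a complex and also apart from each other. They keep plants vegetative by repressing genes that promote flowering, among them *SOC1* in the shoot apex and *FT*, which encodes a mobile protein made in leaves under inductive day lengths. *FRI* raises *FLC* transcription, and prolonged cold silences it. The shoot apex holds the meristem, which turns from making leaves to making flowers once the repressors are overcome.

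Levels are log2 values, so a difference of 1 is a 2-fold change. Changes are *flc svp* minus WT, with the standard error (SE) of the fit over all arrays, and calls required both a change of over 2-fold and an adjusted p below 0.01 (limma, Benjamini-Hochberg adjustment). Across genes, pairs of these 6 arrays had a Pearson r of 0.9917 to 0.9932 within a group and of 0.9877 to 0.9904 between the groups. The apex labels were set against marker genes. *STM*, a homeobox gene of the shoot meristem, was at 7.54, 7.22 and 7.71 in *flc svp* and at 7.61, 7.72 and 7.82 in WT, whereas *WUS* and *CLV3*, which mark small groups of stem cell niche cells, were at or below 3.13 on all 6 arrays. The mean of 10 genes of photosynthetic cells was between 10.59 and 10.77 in *flc svp* and between 10.61 and 10.74 in WT, so the samples held green tissue beside the meristem. None of the 14 meristem, 10 photosynthetic, 3 cell division, 5 root or 1 measured vascular markers was called. Fewer cells of a type and less RNA per cell cannot be told apart in such samples.

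The mutated loci came first. *FLC* was at 6.27, 5.95 and 6.34 in the *flc svp* apices, against 9.44, 9.12 and 9.20 in WT, a fall of 3.07 on the log2 scale (SE 0.14, adjusted p = 2.62e-18). *SVP* transcripts were at 6.51, 6.66 and 6.69 in *flc svp*, against 7.41, 7.75 and 7.71 in WT. The *SVP* arrays of both groups stood apart, but the RNA was still well measured in the mutant, and its fall by 1.00 (SE 0.11, adjusted p = 2.3e-07) lay just past 2-fold. It was below 2-fold with each array centred on its median (-0.99) and when *flc svp* replicate 1 (-0.97), WT replicate 2 (-0.94) or WT replicate 3 (-0.98) was left out. *FRI*, present in both groups, was at 4.51, 4.55 and 4.52 in *flc svp* and at 4.56, 4.42 and 4.34 in WT (adjusted p = 0.841).

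Of the 31004 genes, 122 (0.393%) were called in *flc svp* against WT, 34 higher (0.110%) and 88 lower (0.284%). The 3 arrays of *flc svp* lay beyond the 3 WT arrays in 33 of the 34 genes that rose and in 87 of the 88 that fell. Over all genes, 19.6% did not overlap between the groups. Without the requirement of a 2-fold change, 452 genes (1.46%) had an adjusted p below 0.01. The changes ran from -3.51 to 5.0, with a median of 1.39 among the genes that rose and -1.33 among those that fell. Transcripts that fell were mostly measured well in WT (median level 6.69), whereas those that rose started lower there (median level 4.72), beside a median of 4.34 over all genes. The gene lists below were chosen with earlier results of these data known or, where so stated, after the values were seen. Counts called in them stand beside the shares of 0.110% higher and 0.284% lower over all genes.

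**Figure D1:**
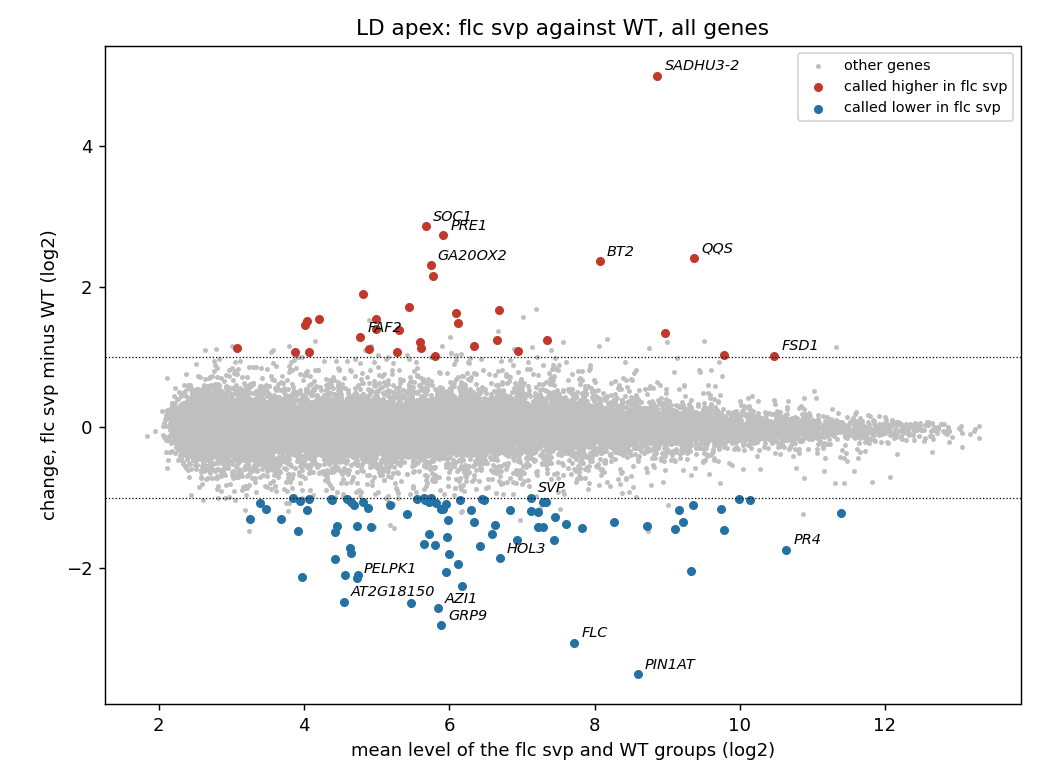
Change in *flc svp* against WT in the LD apex (log2) plotted against the mean level of the groups (log2), with 1 point per gene, called genes coloured and dotted lines at 2-fold. *SADHU3-2* and *SOC1* head the 34 called rises, and *PIN1AT* and *FLC* the 88 called falls.

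Among the genes of flowering, *SOC1* stood out. *SOC1*, a MADS-box gene that integrates flowering signals in the meristem, was at 7.14, 7.12 and 7.05 in *flc svp*, against 4.21, 4.12 and 4.42 in WT. The groups were far apart and the replicates close, with a rise of 2.86 (SE 0.13, adjusted p = 2.62e-18), or 7.25-fold. In the single mutants it was intermediate, at 4.97, 5.33 and 5.32 in *svp* and at 5.39, 5.37 and 5.27 in *flc*. *AGL19*, a relative of *SOC1* that also promotes flowering, had low levels of 3.32, 3.46 and 4.13 in *flc svp*, against 2.66, 2.49 and 2.39 in WT. Its rise of 1.13 (SE 0.26, adjusted p = 0.00919) lost its call without *flc svp* replicate 2 or 3 or any of the 3 WT replicates, at adjusted p between 0.0211 and 0.112.

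These were the 2 genes called among 27 floral integrators and MADS-box floral genes, whose median change was 0.14 beside 0.00 over all genes. *FUL*, a MADS-box gene of the inflorescence meristem, was at 4.47, 4.46 and 4.03 in *flc svp* and at 3.57, 3.74 and 3.61 in WT. It differed by 0.68 (SE 0.15, adjusted p = 0.00445), short of 2-fold. Genes that act once flowers form were not called. *AP1*, which specifies floral meristems, was at 2.59, 2.31 and 2.72 in *flc svp* and at 2.61, 2.54 and 2.56 in WT. *LFY*, its partner in that role, was at 4.05, 3.95 and 4.11 in *flc svp* and at 3.93, 3.76 and 3.95 in WT. The floral organ gene *SEP3* was at 3.36, 3.18 and 3.49 in *flc svp*, against 3.17, 3.09 and 2.96 in WT, with a difference of 0.27 (SE 0.21, adjusted p = 0.687). *FT* was near the bottom of the scale in both groups, at 2.59, 2.74 and 2.76 in *flc svp* and at 2.52, 2.59 and 2.56 in WT.

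The SPL factors, which link plant age to flowering, had no called member among the 15 measured, with a median change of 0.07. *SPL15*, which acts in the meristem, came closest, at 4.85, 4.70 and 4.71 in *flc svp* and at 3.81, 3.71 and 3.89 in WT. The arrays did not overlap, and the difference of 0.95 (SE 0.13, adjusted p = 4.78e-06) was just under 2-fold. *SPL4* differed by 0.63 (adjusted p = 0.0113). Among 16 other floral repressors 1 gene was called. *AGL15*, a MADS-box gene that delays flowering and is known from embryos, was at 5.63, 5.08 and 5.65 in *flc svp*, against 4.56, 4.21 and 4.25 in WT, a rise of 1.12 (SE 0.24, adjusted p = 0.00414) in a list with a median change of -0.16. The *AGL15* call was lost without *flc svp* replicate 1 or 3 or WT replicate 2 or 3 (adjusted p between 0.0219 and 0.0362). *TOE1* and *AP2*, related repressors targeted by the microRNA miR172, had changes of -0.59 (adjusted p = 0.0108) and -0.51 (adjusted p = 0.0113).

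*FAF2*, a gene of the *FAF* family that is also named *FTM5* for the floral transition at the meristem, was at 5.50, 4.93 and 5.82 in *flc svp*, against 4.07, 4.08 and 4.25 in WT. It rose by 1.29 (SE 0.19, adjusted p = 2.25e-05), while *FAF1*, *FAF3* and *FAF4* had changes of 0.19, -0.38 and 0.32 and were not called. *FTM1*, a desaturase gene named in the same way, was at 5.24, 4.73 and 5.49 in *flc svp*, against 5.73, 6.08 and 6.73 in WT. That fall of 1.03 (SE 0.22, adjusted p = 0.00453) lost its call without *flc svp* replicate 1 or 2 or WT replicate 2 or 3 (adjusted p between 0.0131 and 0.078). Both genes were singled out after their values were seen.

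Gibberellin, a growth hormone that promotes flowering, was represented by 35 genes of its metabolism and signalling, of which 1 was called. *GA20OX2*, an oxidase of the late steps of gibberellin synthesis, was at 6.76, 6.87 and 7.05 in *flc svp*, against 4.40, 4.67 and 4.70 in WT. The groups were separate, with a rise of 2.30 (SE 0.17, adjusted p = 9.17e-12), or 4.94-fold. The single mutants had 5.24, 5.50 and 6.38 in *svp* and 4.88, 5.40 and 5.52 in *flc*. Its relatives *GA20OX1*, *GA20OX3*, *GA20OX4* and *GA20OX5* had changes of 0.45, 0.10, -0.08 and 0.04, and none was called. The list's median change was 0.04. *KO*, an early enzyme of the pathway, and *GA2OX2*, which inactivates gibberellins, had changes of -0.51 (adjusted p = 0.00635) and 0.56 (adjusted p = 0.00915), both under 2-fold.

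*PRE1* and *PRE5*, which encode small helix-loop-helix proteins without DNA binding that favour cell elongation, rose together. *PRE1* was at 7.12, 7.21 and 7.51 in *flc svp* and at 4.66, 4.40 and 4.57 in WT, a rise of 2.73 (SE 0.42, adjusted p = 5.49e-05) or 6.65-fold. *PRE5* was at 6.33, 5.65 and 6.94 in *flc svp*, against 4.62, 4.38 and 4.78 in WT (1.71, SE 0.20, adjusted p = 5.59e-07). Against WT, *PRE1* changed by 1.79 in *svp* and 1.09 in *flc*, and *PRE5* by 1.39 and 1.33. The other 4 members of this family, picked as a group after the calls were seen, had changes between -0.25 and 0.56 and were not called.

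Of 5 genes of sugar and dark response, listed with earlier results known, *BT2* and *DIN10* were called higher, beside 0.110% of all genes. *BT2*, which encodes a BTB and TAZ domain protein induced by low sugar, was at 9.63, 9.03 and 9.11 in *flc svp*, against 6.67, 6.92 and 7.08 in WT, a rise of 2.36 (SE 0.28, adjusted p = 4.52e-07) or 5.15-fold. Its levels in the single mutants were also above WT, at 8.56, 8.79 and 8.93 in *svp* and at 9.49, 9.33 and 9.22 in *flc*. *DIN10*, a dark-inducible gene of sugar metabolism, was at 7.19, 7.44 and 7.91 in *flc svp* and at 5.31, 5.71 and 6.51 in WT, with a rise of 1.67 (SE 0.31, adjusted p = 0.000925). Its call was lost without *flc svp* replicate 3 (adjusted p = 0.0105) or WT replicate 1 (adjusted p = 0.0176). All 5 genes of that list had changes above 0 (median 1.67), and 3 were not called. *DIN10* also stood on the list of cold response, where it was the 1 called gene of 11 and the median change was 0.22.

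Outside the list, and looked up after the values were seen, *BT1*, the close relative of *BT2*, was at 7.90, 7.77 and 8.25 in *flc svp* and at 6.54, 6.65 and 6.99 in WT (1.24, SE 0.24, adjusted p = 0.00132), and *TPS11*, of the trehalose phosphate synthase family, at 5.90, 5.55 and 5.98 in *flc svp* and 4.49, 4.78 and 4.95 in WT (1.07, SE 0.18, adjusted p = 0.000173). Without WT replicate 1, *BT1* (adjusted p = 0.0142) lost its call and *TPS11* fell below 2-fold, and *BT1* also lost it without *flc svp* replicate 3 (adjusted p = 0.013). Of the 5 members of the *BT* family, 2 were called, and the other 3 were not. In *BT1*, *BT2*, *DIN10* and *TPS11*, WT replicate 1 was the lowest array, and over the 34 genes that rose it was the lowest WT array in 21. Over the same 34 genes, replicate 3 was the highest of its group in 21 in *flc svp* and in 22 in WT. Over the 88 genes that fell, WT replicate 2 was the highest WT array in 39 and WT replicate 3 the lowest in 40. In *flc svp*, replicate 2 was the highest in 40 of the 88 and replicate 1 the lowest in 38. Whether the composition of these arrays bears on the changes was not tested.

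Further rises in the 15 largest concerned genes of other or unknown roles. *AFP3*, which encodes a protein that binds the abscisic acid regulator ABI5, was at 6.75, 6.88 and 7.12 in *flc svp* and at 5.16, 5.23 and 5.47 in WT (1.63, SE 0.22). AT4G26220, a methyltransferase gene, was at 4.80, 4.71 and 4.87 in *flc svp* and at 3.09, 3.24 and 3.50 in WT (1.52, SE 0.14), and AT5G01200, of a homeodomain-like family, at 6.90, 6.63 and 7.06 in *flc svp* and 5.66, 5.20 and 5.28 in WT (1.48, SE 0.17). AT5G34830 and AT3G22275 have no assigned function and rose by 1.55 (SE 0.24) and 1.90 (SE 0.42), and AT1G54020, annotated as a lipase, by 1.54 (SE 0.35). AT3G22275 lost its call without *flc svp* replicate 2 or 3 or WT replicate 2 or 3 (adjusted p between 0.0377 and 0.0538). AT1G54020 lost its call without *flc svp* replicate 2 or 3 or any WT replicate (adjusted p between 0.0211 and 0.0709). AT2G13547 was higher still in the *svp* single mutant, with 8.57, 8.15 and 8.64 in *svp*, beside 6.44, 6.93 and 7.16 in *flc svp*, 4.14, 4.14 and 4.70 in *flc* and 4.28, 5.30 and 4.51 in WT.

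**Figure D2:**
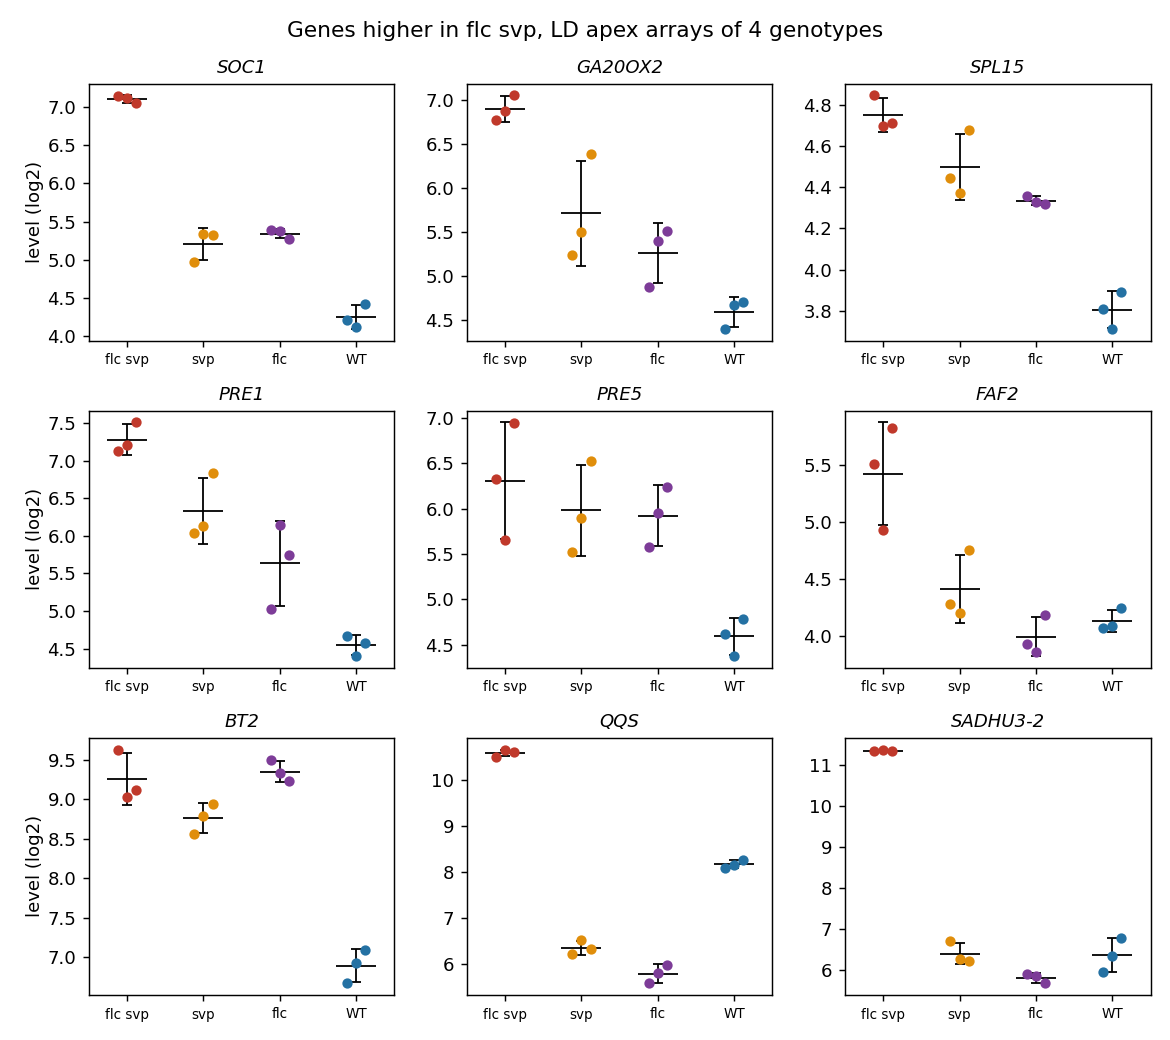
Levels (log2) of 9 genes higher in *flc svp* than in WT in the LD apex, with 1 point per array, the group mean as a bar and the SD as whiskers, in *flc svp*, *svp*, *flc* and WT. *BT2* is as high in *flc* as in *flc svp*, *SOC1* is intermediate in both single mutants, and *QQS* is lower in both single mutants than in WT.

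Non-additive change in *flc svp* was tested as the interaction of *FLC* and *SVP*, the change in *flc svp* minus the changes in *svp* and in *flc*. Of the 31004 genes, 4 (0.0129%) were called, all with a positive interaction. At an unadjusted p under 0.05 there were 1148 (3.70%) in either direction. *QQS*, a gene without relatives outside its lineage that affects starch content, was at 10.50, 10.64 and 10.60 in *flc svp*, against 8.09, 8.15 and 8.27 in WT. In the single mutants it lay below WT, at 6.24, 6.53 and 6.32 in *svp* and at 5.59, 5.82 and 5.99 in *flc*, and the interaction was 6.59 (SE 0.26, adjusted p = 1.66e-19). *SADHU3-2*, a transposable element gene, was at 11.35, 11.39 and 11.35 in *flc svp*, against 5.96, 6.34 and 6.79 in WT, the largest change of the comparison at 5.0 (SE 0.17), or 32.0-fold. Its levels in *svp* (6.70, 6.27 and 6.23) and *flc* (5.89, 5.84 and 5.68) were near or below those in WT, with an interaction of 5.52 (SE 0.24, adjusted p = 9.14e-19).

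AT1G67105, a gene of non-coding RNA, was at 6.15, 5.78 and 6.04 in *flc svp* and at 4.56, 4.41 and 4.86 in WT, with an interaction of 1.56 (SE 0.22, adjusted p = 0.000182). The fourth, AT4G26100, a casein kinase gene looked up after the test, did not differ between *flc svp* (6.50, 6.29 and 6.47) and WT (6.41, 6.27 and 6.23) beyond the spread of the arrays. It was low in *flc* alone, at 5.29, 5.36 and 5.29, and its interaction was 1.09 (SE 0.12, adjusted p = 4.82e-07). *SOC1*, *GA20OX2* and *PRE1* had interactions of 0.80 (SE 0.18, adjusted p = 0.294), 0.51 (SE 0.24) and -0.14 (SE 0.59), and *BT2* of -1.96 (SE 0.39, adjusted p = 0.104). For these genes departure from additivity did not pass the test.

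The falls were then set beside the single mutants. The *svp* and *flc* arrays of the LD apex enter neither group of the *flc svp* comparison, so they allowed a separate comparison of *svp* with *flc*, a contrast added after the values were seen. Of the 88 genes lower in *flc svp*, 25 were called lower in *svp* than in *flc* and 1, *FLC* itself, was called higher. Over all genes 0.0935% were called lower in *svp* than in *flc*, and 0.0226% higher. The median of *svp* minus *flc* was -0.85 over the 88 genes, of which 77 lay below 0, beside 0.00 over all genes. Of the 34 genes that rose, 3 were called higher in *svp* than in *flc* and 0 lower (limma), with 12 higher and 6 lower at an unadjusted p under 0.05, and a median of 0.19.

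*PIN1AT*, a peptidyl-prolyl isomerase gene known to affect flowering time, had the largest fall, at 6.92, 6.65 and 6.93 in *flc svp* and 10.43, 10.29 and 10.33 in WT (-3.51, SE 0.09, adjusted p = 2.23e-25). It was at 6.80, 6.87 and 7.14 in *svp* and at 10.30, 10.38 and 10.23 in *flc*, so that the genotypes with *svp* stood apart from those with *SVP*. The same arrangement was seen in AT1G55675, of unknown function, with 5.24, 4.84 and 5.08 in *flc svp*, 5.32, 5.03 and 5.55 in *svp*, 7.28, 7.59 and 7.14 in *flc* and 7.43, 7.07 and 7.43 in WT. It was also seen in AT3G51000, a hydrolase gene that fell by 2.06 (SE 0.13) in *flc svp*, and in *HOL3*, a methyltransferase gene that fell by 1.87 (SE 0.14, adjusted p = 1.24e-11). *HOL3* was at 5.89, 5.78 and 5.61 in *flc svp*, 5.51, 5.51 and 5.94 in *svp*, 7.42, 7.64 and 7.51 in *flc* and 7.53, 7.70 and 7.65 in WT. *svp* was lower than *flc* by 3.37, 2.04, 2.05 and 1.87 in these genes, at adjusted p of 1.87e-11 or less in each.

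**Figure D3:**
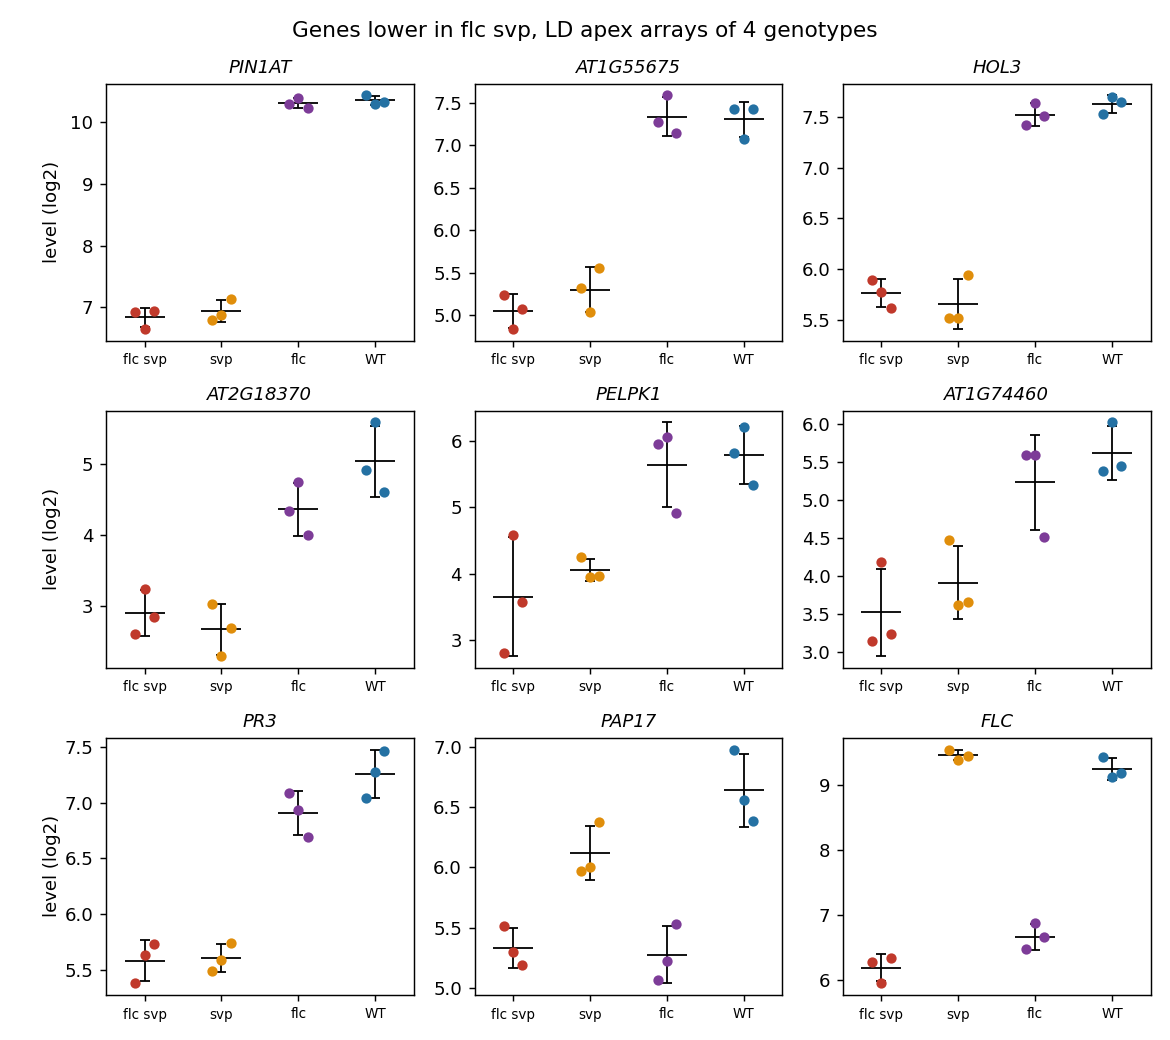
Levels (log2) of 9 genes lower in *flc svp* than in WT in the LD apex, with 1 point per array, the group mean as a bar and the SD as whiskers, in *flc svp*, *svp*, *flc* and WT. *PIN1AT*, AT1G55675, *HOL3*, AT2G18370, *PELPK1*, AT1G74460 and *PR3* are low in *svp* as well, whereas *FLC* is low in *flc*. *PAP17* is low in *flc*, with *svp* between *flc* and WT.

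Several of the falls had annotations of the cell wall, of lipids or of membranes. The called genes were sorted by annotation after the calls were known, and 31 of them belonged to 7 families, of which 30 fell, in a comparison where 88 of the 122 called genes (0.284% of all genes) fell. The measured but uncalled members of these families were not counted, so no share of a family that changed is given and the families carry no test. Beside those described next, 4 lectins, 3 glycine-rich proteins and 2 membrane proteins of the UPF0497 family, AT4G20390 and AT5G44550, were called lower. Of the peroxidases that act in cell walls, 6 were called, all lower, whereas the peroxidase gene *RCI3* changed by -0.09 (adjusted p = 0.93). Of the called ones AT2G18150 changed most, at 3.39, 3.15 and 3.38 in *flc svp*, against 5.90, 6.31 and 5.15 in WT (-2.48, SE 0.25, adjusted p = 1.15e-08), or 5.59-fold lower in *flc svp*. AT2G38390 was at 3.62, 3.95 and 3.75 in *flc svp* and at 5.37, 6.20 and 4.88 in WT, and AT4G36430 at 3.17, 3.13 and 3.21 in *flc svp* and 4.74, 5.33 and 3.88 in WT. *PRXCB*, AT2G38380 and AT2G37130 fell by 1.35, 1.66 and 1.20. AT2G38380 lost its call without *flc svp* replicate 1 or WT replicate 2 (adjusted p between 0.0205 and 0.0323) and AT2G37130 without *flc svp* replicate 1 or 2 or WT replicate 3 (adjusted p between 0.0153 and 0.0432).

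Among extensins and proline-rich proteins, structural proteins of the wall, 7 were called, all lower. *PELPK1*, named for its repeated peptide, was at 2.79, 4.58 and 3.57 in *flc svp*, against 5.83, 6.22 and 5.34 in WT (-2.15, SE 0.33, adjusted p = 6.64e-05). Its neighbour and close relative *PELPK2* was at 2.95, 4.32 and 3.21 in *flc svp* and at 5.45, 5.29 and 5.36 in WT, and AT4G38080 at 4.17, 6.02 and 5.24 in *flc svp* and 6.93, 7.65 and 6.68 in WT. In all of these *flc svp* replicate 2 was the highest of its group. *PELPK2* lost its call without *flc svp* replicate 1 or 3 or WT replicate 1 (adjusted p between 0.0129 and 0.0276), and AT4G38080 without *flc svp* replicate 1 (adjusted p = 0.0394) or WT replicate 2 (adjusted p = 0.0233). *EXT3* fell by 1.28 (SE 0.26, adjusted p = 0.00206) and AT5G09480 by 1.78 (SE 0.29, adjusted p = 0.000141). The *EXT3* call was lost without *flc svp* replicate 3 or WT replicate 1 or 2 (adjusted p between 0.0108 and 0.034).

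*GRP9*, which encodes a glycine-rich protein of the wall, was at 4.43, 4.97 and 4.03 in *flc svp*, against 7.47, 7.84 and 6.56 in WT, a fall of 2.81 (SE 0.37, adjusted p = 4.9e-06). Among lipid-transfer proteins 5 were called, all lower. *AZI1*, known from systemic defence, was at 4.72, 4.73 and 4.21 in *flc svp* and at 7.43, 7.51 and 6.46 in WT (-2.58, SE 0.39, adjusted p = 4.33e-05). *EARLI1* was at 4.15, 4.38 and 4.16 in *flc svp* and at 7.18, 7.16 and 5.84 in WT (-2.50, SE 0.36, adjusted p = 2.02e-05). *AZI1* and *EARLI1* are adjacent close relatives, and signal shared between their probes was not tested. Nor was it tested for the neighbouring peroxidase genes AT2G38380 and AT2G38390 or for *PELPK1* and *PELPK2*. AT2G18370, of the same protein family, was at 2.60, 3.25 and 2.85 in *flc svp* and at 4.92, 5.58 and 4.60 in WT (-2.13, SE 0.23).

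The lipases of the GDSL family had 4 called members, 3 lower and 1, AT1G54020, higher. AT1G74460 was at 3.14, 4.18 and 3.24 in *flc svp* and at 5.38, 6.02 and 5.45 in WT, and AT2G23540 at 3.03, 4.49 and 3.57 in *flc svp* and 5.37, 6.30 and 5.72 in WT, with the same change of -2.10 (SE 0.26 and 0.29). Suberin is a lipid polymer of protective cell walls. Of 13 suberin genes, listed after the values were seen, 2 were called lower, beside 0.284% of all genes. These were *CYP86A1*, which makes its fatty acid building blocks (-1.01, SE 0.23, adjusted p = 0.0091), and *ASFT*, which adds ferulate to them (-1.02, SE 0.19, adjusted p = 0.000978). *CYP86A1* lost its call without *flc svp* replicate 1 or 3 or WT replicate 2 or 3 (adjusted p between 0.0136 and 0.152), and *ASFT* without *flc svp* replicate 3 or WT replicate 2 (adjusted p between 0.0109 and 0.0277). The median of these 13 genes was -0.14. None of 8 genes of the Casparian strip, the root endodermal barrier, also listed after the values were seen, was called (median 0.11). PYK10, an abundant gene of roots, was at 11.32, 10.95 and 11.25 in *flc svp* and at 11.48, 11.77 and 11.54 in WT (-0.43, SE 0.33, adjusted p = 0.68), and the mean of the 5 root markers was between 5.37 and 5.49 in *flc svp* and between 5.50 and 5.61 in WT. The part of root or other suberised tissue in these falls was not tested.

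Of 5 pathogenesis-related genes, a list drawn up after the values were seen, 3 were called lower, beside 0.284% of all genes. *PR3*, a basic chitinase, was at 5.38, 5.63 and 5.73 in *flc svp*, against 7.04, 7.28 and 7.47 in WT (-1.68, SE 0.16, adjusted p = 3.5e-09). It was at 5.49, 5.58 and 5.73 in *svp* and at 7.09, 6.93 and 6.69 in *flc*. *PR4* was at 9.27, 9.90 and 10.13 in *flc svp* and at 11.38, 11.58 and 11.56 in WT, and *PR2*, a glucanase, at 5.47, 6.11 and 5.91 in *flc svp* and 7.58, 7.37 and 7.10 in WT. *PR4* lost its call without *flc svp* replicate 1 or 2 or any WT replicate (adjusted p between 0.0193 and 0.0583), and *PR2* without *flc svp* replicate 1 or 3 or WT replicate 1 or 2 (adjusted p between 0.0104 and 0.0472). *PR1* and *PR5* had changes of -0.67 and -0.66 and were not called. The legume lectin gene AT3G16530 was at 8.07, 8.06 and 8.78 in *flc svp* and at 10.47, 10.20 and 10.37 in WT (-2.04, SE 0.42, adjusted p = 0.00279), a call lost without *flc svp* replicate 1 or 2 or WT replicate 1 or 3 (adjusted p between 0.0168 and 0.0276).

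On the list of salicylate and defence, *PR2* was the 1 called gene of 17, and 15 of the 17 had changes below 0, with a median of -0.37. The arrays did not overlap in 7 of them, all lower in *flc svp*, beside 19.6% of all genes without overlap in either direction. On the list of jasmonate, a hormone of wounding, none of 17 was called, and 16 had changes above 0 with a median of 0.46. The arrays did not overlap in 8 of these, all higher in *flc svp*. *JAZ6*, a repressor of jasmonate responses that is induced by them, was at 7.99, 8.59 and 8.49 in *flc svp* and at 7.57, 7.30 and 7.68 in WT (0.84, SE 0.23, adjusted p = 0.0318). None of 17 clock and photoperiod genes was called (median -0.07), and the 2 reference genes had changes of 0.01 and 0.05.

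Genes of phosphate shortage were among the falls as well. Of 14 genes known from phosphate starvation, a list drawn up after the calls were seen, 4 were called lower and none higher. The median of the list was -0.12, and over all genes 0.284% were called lower. *PAP17*, an acid phosphatase gene, was at 5.51, 5.29 and 5.19 in *flc svp* and at 6.98, 6.56 and 6.39 in WT (-1.31, SE 0.25, adjusted p = 0.000954), with 5.97, 6.01 and 6.38 in *svp* and 5.07, 5.22 and 5.53 in *flc*. *SPX1*, a sensor of phosphate status, was at 5.61, 5.57 and 5.93 in *flc svp* and at 7.24, 6.83 and 6.61 in WT (-1.18, SE 0.22, adjusted p = 0.00095), with 5.88, 6.21 and 6.48 in *svp* and 5.24, 5.73 and 5.73 in *flc*. The differences between *svp* and *flc* were not called for either (adjusted p = 0.0868 and 0.209). Both lost their call without WT replicate 1, the highest WT array for each, at adjusted p of 0.0185 for *PAP17* and 0.0217 for *SPX1*. *G3Pp1*, a glycerol phosphate permease gene, and the phosphatase gene AT1G73010 fell by 1.01 and 1.05. *G3Pp1* was no longer called without *flc svp* replicate 1 or WT replicate 1 or 2 (adjusted p between 0.00604 and 0.0109), and AT1G73010 without *flc svp* replicate 1 or WT replicate 2 (adjusted p between 0.00916 and 0.0175).

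The same genotypes were compared in SD apices, on arrays that the LD comparison did not use. Of the 34 genes that rose in LDs, 23 (67.6%) were called higher in SD apices, and these made up 44.2% of the 52 genes called higher there. All 34 had a change above 0 in SDs, with a median of 1.33. Of the 88 that fell, 46 (52.3%) were called lower in SDs, or 48.4% of the 95 genes called lower there, and 87 had a change below 0 (median -1.04). Over all genes 0.168% were called higher and 0.306% lower in SD apices, and no gene was called in opposite directions in the LD and SD apices. Without *flc svp* replicate 3 of the LD apex, 15 genes rather than 23 were called higher in both. *SADHU3-2* and *QQS* changed by 5.05 and 2.76 in SDs, *GA20OX2* by 2.26, *BT2* by 2.17 and *PIN1AT* by -3.23.

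**Figure D4:**
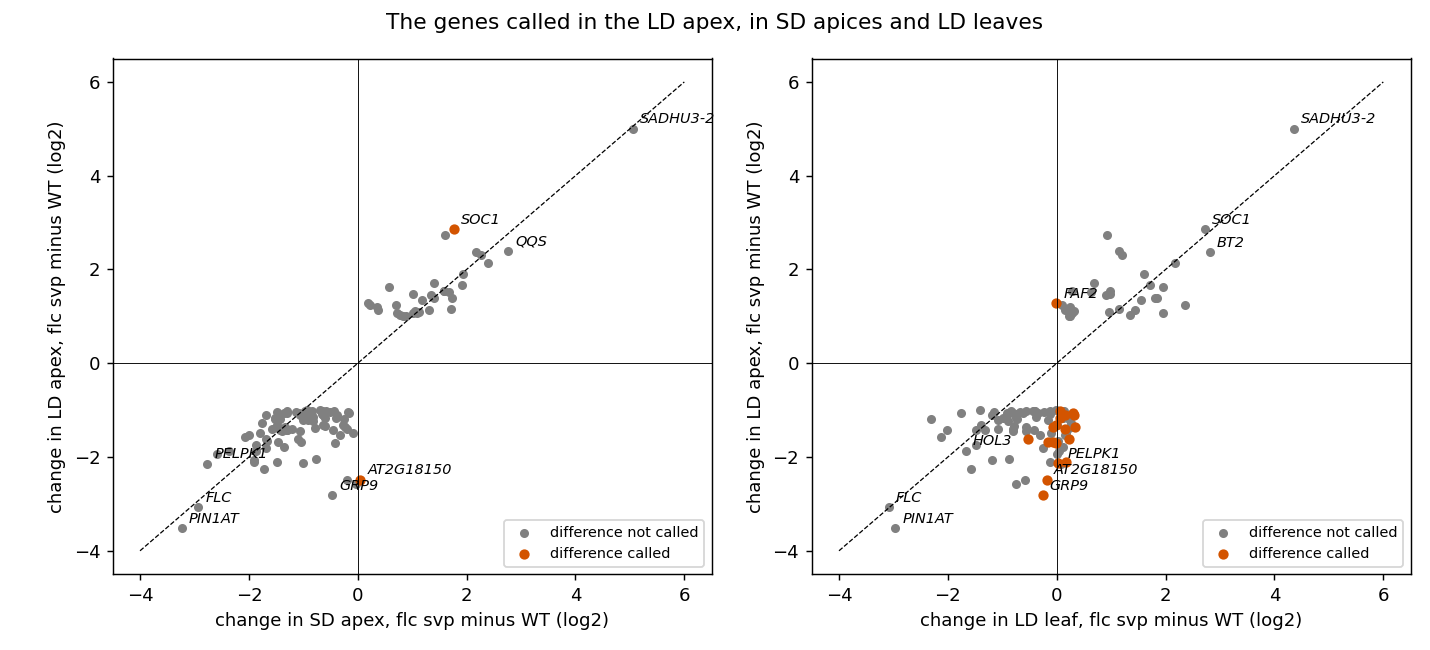
Change in the LD apex (log2) of the 122 called genes plotted against their change in SD apices and in LD leaves (log2), all *flc svp* minus WT, with the dashed line marking equal change and orange points the genes whose changes differed by the test. AT2G18150 and *GRP9* lie below -2 in LD apices and nearer to 0 in SD apices and in leaves, whereas *PIN1AT* and *FLC* lie near the line in SDs.

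The SD plants were 2 weeks old per the study's methods, whereas their labels add 2 further SDs, so it is not settled whether they were as old as the LD plants. A difference between LDs and SDs cannot be told apart from one of age where the ages differed. The difference between the LD and SD changes was tested directly, and 4 of 31004 genes (0.0129%) were called, 3 with a positive difference (0.00968%) and 1 with a negative one (0.00323%), with 1600 (5.16%) at an unadjusted p under 0.05. *SOC1* rose more in LDs, by 2.86 against 1.77 in SDs. In SD apices it was at 6.17, 6.18 and 6.27 in *flc svp* and at 4.32, 4.32 and 4.67 in WT, so that *flc svp* had more *SOC1* in LDs than in SDs while WT had about the same. The difference was 1.09 (SE 0.18, adjusted p = 0.0066). The peroxidase gene AT2G18150 was at 3.03, 3.13 and 3.27 in *flc svp* and at 2.81, 3.13 and 3.35 in WT in SDs. It was thus high on the 3 WT arrays in LDs and low on the other 9 of these apex arrays, with a difference of -2.53 (SE 0.35, adjusted p = 0.000583).

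*LSU1*, a gene of sulfur limitation, was at 5.88, 6.12 and 6.34 in *flc svp* and at 7.29, 7.06 and 6.53 in WT in LDs, and at 5.13, 5.37 and 5.79 in *flc svp* and 8.05, 7.99 and 8.56 in WT in SDs. Its difference was 1.93 (SE 0.31, adjusted p = 0.00477). Of the 14 genes listed for sulfur limitation none was called in LDs, with a median of -0.07. In SDs 7 were called lower, beside 0.306% of all genes, with a median of -1.21. The fourth gene, *RCI3*, a cold-inducible peroxidase outside the naming rule, was at 5.60, 5.68 and 5.49 in *flc svp* and at 5.44, 5.98 and 5.62 in WT in LDs, and at 4.44, 4.90 and 4.02 in *flc svp* and 6.26, 6.62 and 6.03 in WT in SDs (difference 1.76, SE 0.29, adjusted p = 0.00477).

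These 4 calls depended on the arrays and on the fit. AT2G18150 was called without each of the 6 arrays in turn, but its mean over all arrays was under 4, so the filter on low means left it out. *SOC1* was called without WT replicate 3 and was not called without any of the other 5 (adjusted p between 0.0195 and 0.038). *LSU1* was lost without *flc svp* replicate 2 or 3 or WT replicate 3 (adjusted p between 0.0185 and 0.0233), and *RCI3* without any *flc svp* replicate or WT replicate 1 or 3 (adjusted p between 0.0128 and 0.0337). A fit of the 24 apex arrays alone called no gene, with 2043 at an unadjusted p under 0.05, and gave adjusted p of 0.0426 for AT2G18150, 0.0267 for *SOC1*, 0.067 for *LSU1* and 0.103 for *RCI3*.

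**Figure D5:**
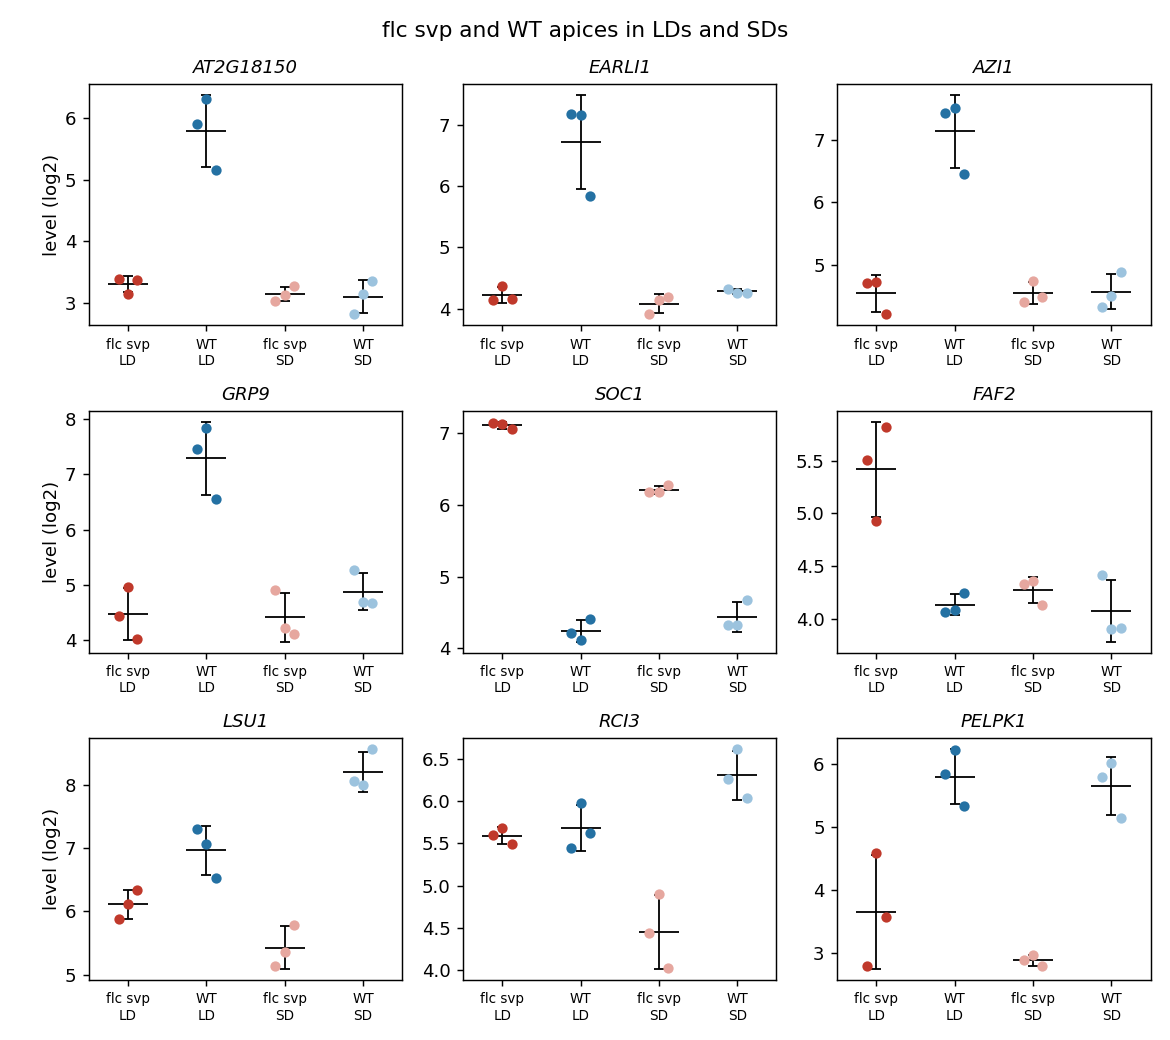
Levels (log2) of 9 genes in *flc svp* and WT apices in LDs and in SDs, with 1 point per array, the group mean as a bar and the SD as whiskers. AT2G18150, *EARLI1*, *AZI1* and *GRP9* are high in WT in LDs and low in the other 3 groups, and *SOC1* and *FAF2* are highest in *flc svp* in LDs.

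Some genes with a like pattern did not pass this test. *EARLI1* was at 3.91, 4.15 and 4.19 in *flc svp* and at 4.33, 4.26 and 4.26 in WT in SDs, and its difference was -2.30 (SE 0.51, adjusted p = 0.102). *AZI1* (-2.55, SE 0.55, adjusted p = 0.0979) and *GRP9* (-2.35, SE 0.53, adjusted p = 0.118) were similar. In all 3 genes and in AT2G18150, WT replicate 3 was the lowest of the WT arrays in LDs. *FAF2* was at 4.33, 4.36 and 4.13 in *flc svp* and at 4.41, 3.90 and 3.91 in WT in SDs, and its difference was 1.09 (SE 0.26, adjusted p = 0.196).

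The same genotypes were also compared in leaves in LDs. Of the 34 genes that rose in the apex, 16 (47.1%) were called higher in leaves, or 8.7% of the 184 called higher there. Of the 88 that fell, 16 (18.2%) were called lower in leaves, or 19.8% of the 81 called lower there, and the median leaf change of the 88 was -0.36. Over all genes 0.593% were called higher and 0.261% lower in leaves. In the test of the difference, apex change minus leaf change, 63 genes (0.203%) were called, 6 with a positive difference (0.0194%) and 57 with a negative one (0.184%), and 3056 (9.86%) had an unadjusted p under 0.05. That count was 33 without *flc svp* replicate 1 and 34 without WT replicate 2.

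Among the negative differences were genes that fell in the apex and were low in leaves of both genotypes. AT1G74460 was at 3.35, 3.04 and 3.12 in *flc svp* leaves and at 2.93, 2.95 and 3.13 in WT leaves (difference -2.27, SE 0.37, adjusted p = 0.000677). AT2G18150 was at 3.32, 2.84 and 3.07 in *flc svp* leaves and at 3.09, 3.52 and 3.18 in WT leaves (-2.30, SE 0.35). AT2G18370 was at 2.94, 2.79 and 2.53 in *flc svp* leaves and at 2.50, 2.82 and 2.89 in WT leaves (-2.15, SE 0.32, adjusted p = 0.000246). Of the 6 peroxidases 3 differed between tissues, and none of the 6 was called in leaves. They had been picked for falls on these same apex arrays, which tilts the difference towards negative values. The count is thus no separate result. The test for *GRP9* (-2.55, SE 0.53, adjusted p = 0.00954) was lost without *flc svp* replicate 1 or 3 or WT replicate 1 or 2 (adjusted p between 0.0289 and 0.0541). Some falls were shared with leaves. Of the 3 called glycine-rich proteins 2 were also called lower there (median leaf change -1.08), as was 1 of the 4 lectins (-0.36). In the other called families no gene was called in leaves.

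Other negative differences were found in genes that were not called in the apex. *SEP3* was at 5.46, 6.08 and 6.71 in *flc svp* leaves and at 4.01, 3.92 and 3.27 in WT leaves, whereas its apex arrays lay between 2.96 and 3.49 (difference -2.08, SE 0.30, adjusted p = 0.000211). *FT* was at 4.29, 4.90 and 4.41 in *flc svp* leaves and at 2.43, 2.89 and 2.70 in WT leaves (difference -1.73, SE 0.22, adjusted p = 2.12e-05). The transporter gene AT1G61890 was at 9.0, 8.96 and 9.49 in *flc svp* leaves and at 7.07, 6.50 and 6.46 in WT leaves, with a difference of -2.85 (SE 0.27, adjusted p = 3.29e-08), and AT2G32210, of unknown function, differed by -2.28 (SE 0.43, adjusted p = 0.00357). AT2G32210 lost its call without *flc svp* replicate 1 or 3 or WT replicate 2 (adjusted p between 0.0102 and 0.0166). *SOC1* rose about equally in both tissues, by 2.86 in apices and 2.72 in leaves (difference 0.14, adjusted p = 0.887).

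*FAF2* had a positive difference between tissues (1.3, SE 0.26, adjusted p = 0.00829), with levels of 3.81, 3.97 and 3.86 in *flc svp* leaves and 3.90, 3.94 and 3.83 in WT leaves. This call was not followed through the other fits. The count of positive calls in this test, 6 in the main fit, was 2 without the replicate block and between 1 and 6 without single arrays.

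A mutation moved by crossing can bring along neighbouring alleles, so the place of the called genes was described, without a test. Of 600 measured loci within 300 on each side of *FLC* on chromosome 5, in the order of the locus identifiers, 5 (0.833%) were called, all lower: *PELPK1*, *PELPK2*, AT5G09480, AT5G11930 and AT5G07475. *PELPK1*, *PELPK2* and AT5G09480 stood 69, 70 and 75 loci from *FLC*, and their changes were -1.74, -1.50 and -1.65 in *svp* and -0.14, -0.07 and -0.45 in *flc*, which carries the *flc* allele with functional *SVP*. AT5G11930, a thioredoxin family gene 188 loci away, changed by -1.29 in *flc* and -0.72 in *svp*.

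Around *SVP* on chromosome 2, 2 of 600 loci (0.333%) were called, AT2G21100 and AT2G23540, and around *FRI* on chromosome 4 none of 380. Farther out, *PIN1AT*, AT2G18150, AT2G18360, AT2G18370 and *TPS11* stood between 442 and 514 loci from *SVP*. That stretch lies outside the window of 300 loci and was picked after the positions were seen, so no share is given for it. By chromosome the called share ran from 0.259% on chromosome 1 to 0.528% on chromosome 2, beside 0.393% of all genes. Linked alleles and loss of the repressor cannot be told apart with 1 allele of each gene.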

How the data were processed

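RNA of each sample was hybridised to an AGRONOMICS1 tiling array. The deposited log2 values were made by the authors with RMA, a method that subtracts background, brings all arrays to 1 distribution and combines the probes of a gene. Precision is limited by the number of arrays. Of 31004 loci, 30484 were matched to symbols of the RefSeq annotation. The genome release behind the probe assignment is not given in the sources used here, so no coordinates are printed.

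All 48 arrays were fitted in limma 3.58.1 (R 4.3.3, data.table version 1.17.8) as 16 group means, with the replicate number entered as a random effect (block, consensus correlation 0.0336), after the study's methods. Variances were moderated (prior df 3.29, residual df 32), and p-values were adjusted by Benjamini-Hochberg over all genes per contrast. The fit was tested on simulated data.

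Named genes were *FLC*, *SVP*, *FRI*, 8 flowering genes, up to 15 largest rises and falls among called genes without overlap between groups, called members of 17 lists, and up to 5 genes per test of a difference whose groups did not overlap. Members and lists were chosen with earlier results of these data known, and other named genes and families after their values were seen. The *svp* and *flc* comparisons share the WT arrays with *flc svp*, so their values stand side by side. Alternatives were other blocks, array subsets, adjustments, a filter at a mean of 4, median centring and leaving out single arrays of the 6 compared.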

Additional observations from a re-analysis of the deposited data

Results flagged for a closer look

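Tests of a difference between 2 effects singled out the following named genes. Groups of 3 arrays are too small for a test of outlying samples, and none was run. Between LD and SD apices, the change in *flc svp* differed by -2.53 for AT2G18150, 1.09 for *SOC1* and 1.93 for *LSU1*.

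Between LD apices and LD leaves, the change differed by -2.85 for AT1G61890, -2.55 for *GRP9*, -2.30 for AT2G18150, -2.28 for AT2G32210, -2.27 for AT1G74460, -2.15 for AT2G18370, -2.08 for *SEP3* and -1.73 for *FT*. *SEP3*, *FT* and AT1G61890 had changes of 0.27, 0.14 and -0.38 in the apex.

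The change in *flc svp* exceeded the sum of the changes in *svp* and *flc* by 6.59 for *QQS*, 5.52 for *SADHU3-2* and 1.56 for AT1G67105.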

How the results depend on the processing

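The count of 122 genes called in *flc svp* against WT was 28 (8 higher, 20 lower) when the 6 arrays were fitted alone, which leaves 4 residual degrees of freedom, and 452 (191 higher, 261 lower) without the fold threshold. Without single arrays it was between 91 and 114 (24 to 42 higher, 60 to 87 lower), without the replicate block 115 and with it as a fixed effect 135. Same-numbered *flc svp* and WT arrays deviated from their group means with r of 0.07, 0.11 and 0.19, and other pairs with r between -0.16 and 0.06. Each same-numbered r was above those of the other pairs. These r depend on each other, since deviations cancel within a group, so no pairing was concluded from them. Whether a number marks a shared growth or harvest is not given in the sources used here. The difference between LDs and SDs had 0 calls (0 higher, 0 lower, 2043 at an unadjusted p under 0.05) in the 24 apex arrays alone, no negative call among genes with a mean of 4 or more, and 1 to 4 calls (0 to 3 positive, 1 to 2 negative) without single arrays. The difference between apex and leaf had 33 to 50 calls (1 to 6 positive, 29 to 44 negative) without single arrays, and 43 (2 positive) without the replicate block. The interaction had 4 calls without each of the 6 arrays of the comparison in turn. It had 5, 1 of them negative, in the 24 apex arrays alone. Arrays of the single mutants, of SD apices and of leaves also enter these tests and were never left out singly. *SOC1* lost its call in the difference between LDs and SDs with a fixed block (adjusted p = 0.0108), and *GRP9* in that between apex and leaf without the block (0.014) or with centred arrays (0.0104). The cause of these shifts was not tested. *AP1*, which was not called, had changes between -0.114 and 0.089 without single arrays, the positive one without *flc svp* replicate 2. Of 61 called genes followed singly, 37 stayed called without each of the 6 arrays in turn.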
